A study of Mus musculus with 28 samples.

Results

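Thyroid gland cells of 9 month old H2B-GFP mice were compared after sorting into a GFP+ and a GFP- fraction. The comparison rests on 6 of the 28 libraries of the series, chosen by gland, age and GFP status in their labels: 3 GFP+ and 3 GFP- libraries. The other libraries were the same sorts of thyroid at 3 and 6 months and of salivary gland at 9 months. All mice carried H2B-GFP, all cells were sequenced freshly after sorting, and no group of wild-type or unsorted cells was used here. The sources used here do not give the promoter that drives the transgene, any period on or off an inducer, the sorting gates, the strain or the number of animals per library.

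H2B-GFP is a histone H2B fused to green fluorescent protein, which is built into chromatin. Once its synthesis is switched off, each division shares the label between the daughter cells, so a cell that keeps a bright signal has divided little; such cells are called label retaining. The thyroid holds hormone-producing follicular cells, calcitonin-producing C cells, a dense network of fenestrated capillaries, and a stroma of fibroblasts, pericytes and smooth muscle. The parathyroid glands lie on or within it, and trachea and oesophagus run beside it. The labels and the title of the series place the comparison in the question of which quiescent cells the gland holds.

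The libraries were shallow and unequal. The GFP+ libraries had 65112, 170230 and 85999 reads in genes for replicates 1, 2 and 3, so that 1 read was worth 15.4, 5.87 and 11.6 CPM (reads scaled to a total of 1000000 reads in genes). The GFP- libraries had 5884, 132610 and 130203 reads, and 1 read was worth 170, 7.54 and 7.68 CPM. GFP- replicate 1 therefore stood apart: 1181 genes had a read in it, against 6890 to 9666 in the other libraries, 65.9% of its reads lay outside genes, against 21.8 to 31.5%, and ribosomal RNA rows held 55.4% of its reads in genes, against 28.3 to 39.0%. A gene listed at 0 in it can have a level of up to 510 CPM, the worth of 3 reads. GFP+ replicate 1 also stood apart, by genes of stratified epithelium whose summed level was 14406 CPM there and 105 to 2655 CPM in the other GFP+ libraries. Results that rest on either library are given with and without it.

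Marker lists were first summed in each library. Thyroglobulin (Tg), the protein on which thyroid hormone is made, was present in all 6 libraries, at 335 to 9032 CPM. Transcripts of the thyroid lineage factors were sparse: Pax8 had 0 reads in GFP+ cells and 6 reads in GFP- cells, and Nkx2-1 had 4 and 8. The iodide transporter Slc5a5 had 4 reads and the thyrotropin receptor Tshr 2 reads over the 6 libraries; both were named after their values were seen. Parathyroid transcripts were abundant, with the parathyroid hormone gene Pth at 5099 to 34741 CPM. Leukocyte transcripts were rarely detected. The pan-leukocyte gene Ptprc and the macrophage genes Cd68 and Adgre1 had 0 reads. They were among 10 of 16 macrophage and antigen presentation genes without a read, and 12 of 16 lymphocyte genes had 0 reads. H2-Aa, H2-Ab1 and Cd74 of the first list had 12, 12 and 8 reads. A count of 0 does not show absence, as the ribosomal protein gene Rpl24 and the mitochondrial gene mt-Co3 also had 0 reads. Cd74, Rpl24 and mt-Co3 were named after their values were seen.

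**Figure D1:**
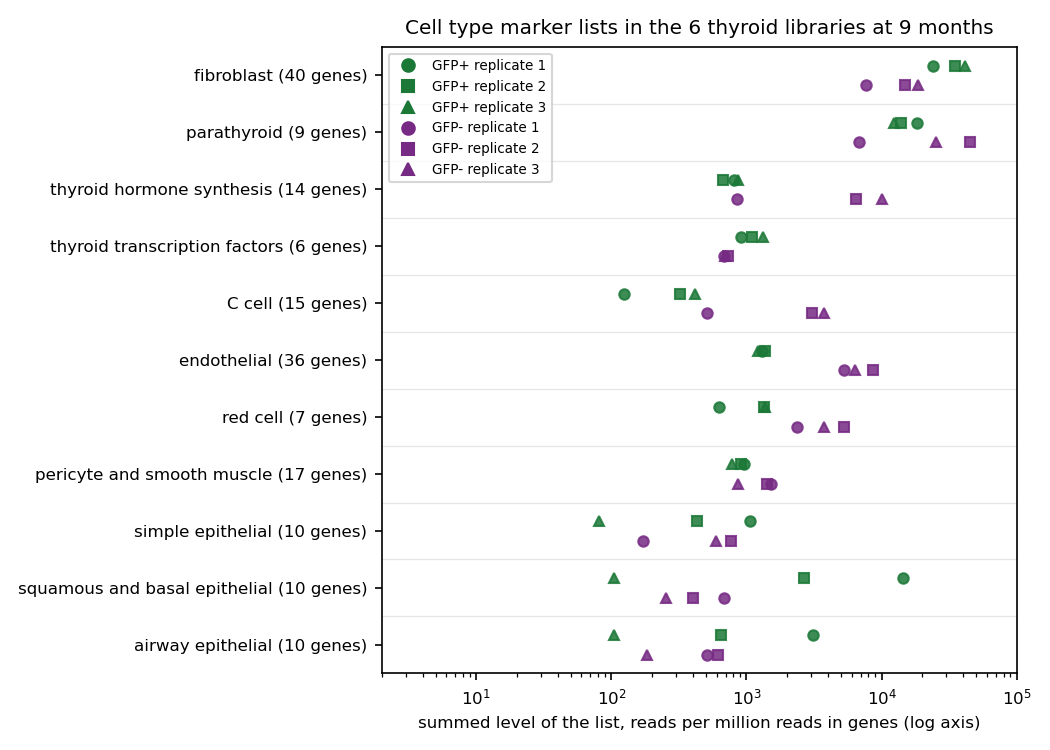
Summed level of 11 marker lists (CPM, log axis) in each of the 6 libraries, with colour for the fraction and symbol for the replicate. The endothelial sums of the GFP+ libraries lay between 1221 and 1380 CPM, below all GFP- sums, and the squamous sums of the GFP+ libraries ran from 105 to 14406 CPM.

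In the GFP+ fraction, capillary endothelial genes, 4 genes of thyroid hormone metabolism and both C cell genes tested were lower. The 5 genes Krt6a, Calml3, Cbr2, Adh7 and Gsta4 were higher. The C cell list had 2 of 15 genes tested and the thyroid hormone list 6 of 14. A gene could pass the filter on low counts through GFP- libraries alone, so the direction of the members tested does not test a list. With the spread estimated over all 22 thyroid libraries, 1900 genes were tested and 36 were called at an adjusted p under 0.05. That was 1.89% of the genes tested: 5 were higher in GFP+ cells (0.263%) and 31 lower (1.63%), and 169 genes had an unadjusted p under 0.05. The median log2 fold change of all genes tested was 0.11. Of the 31 lower genes, 13 were in the endothelial list, 4 in the thyroid hormone list, 2 in the C cell list, 1 in the airway list and 11 in none of the 39 lists. In 14 of the 31, every GFP+ library lay below every GFP- library, against 3.63% of the genes tested; none of the 5 higher genes had all GFP+ libraries above all GFP- libraries, against 14.8%. The other 17 lower genes, like all 5 higher ones, had 0 reads in GFP- replicate 1, where 65.8% of the genes tested had 0 reads. Against GFP- replicates 2 and 3 alone, all 31 lower genes lay below in every GFP+ library, against 13% of genes tested. These counts for called genes come from the same libraries that called them and add no separate evidence. With the genes filtered again for each set of libraries (2468 to 2576 tested), leaving out GFP- replicate 1 gave 11 higher and 32 lower genes; leaving out GFP+ replicate 1 gave 0 and 6. The corresponding counts were 4 and 8 with GFP- replicate 2 removed, 1 and 10 with GFP- replicate 3 removed, 4 and 7 with GFP+ replicate 2 removed, and 16 and 16 with GFP+ replicate 3 removed.

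**Figure D2:**
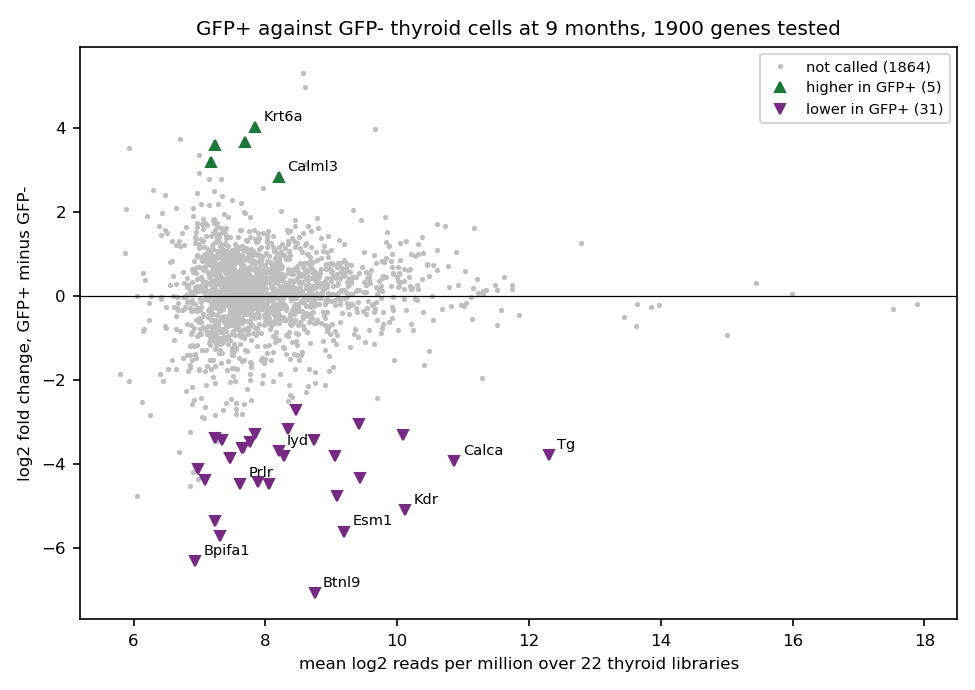
Log2 fold change of GFP+ against GFP- cells at 9 months against the mean log2 CPM over the 22 thyroid libraries, 1 point per gene tested. The 31 genes called lower (downward triangles) reach -7.08 for Btnl9, and the 5 called higher (upward triangles) reach 4.02 for Krt6a.

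**Figure D3:**
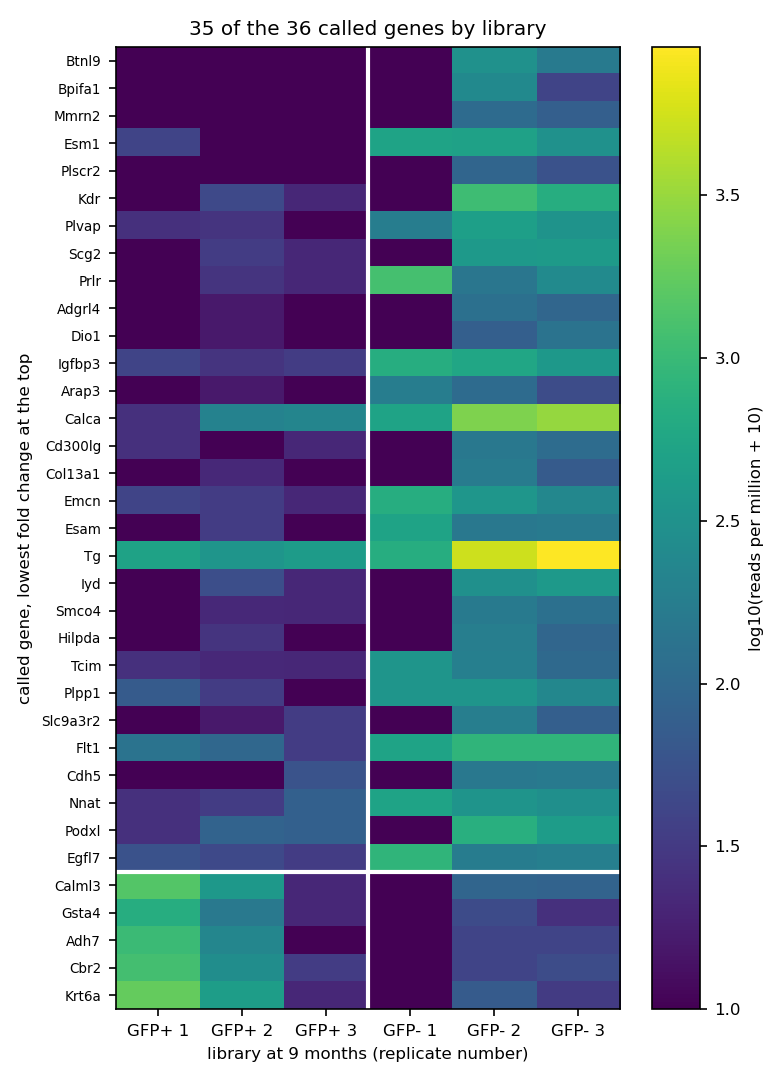
Level of 35 of the 36 called genes in each library, as log10(CPM + 10), ordered by fold change from lowest at the top; the white lines part the fractions and the directions. GFP- replicate 1 is listed at 0 for most of them, and the 5 higher genes at the bottom are brightest in GFP+ replicate 1.

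Promoter sequence is shown for 3 of the lower genes, 1 from each of the 3 lists with the most lower genes. The windows run from 250 to 51 bases before the start site, in the direction of the gene, from RefSeq on build GRCm38.p6. Of the 36 called genes, 21 had an entry among 27025 promoters. Promoters of 1 chromosome were left out of this set, so a called gene there has no entry. Capitals mark matches to 3 motifs searched on both strands. The first was TATAAA, the letter sequence of the TATA box. Bases nearer to the start site than 51 were not searched, so these matches do not show a TATA box promoter. The second was AGGAAG, whose inner letters include the core bound by ETS factors. The last was TGACGTCA, the cyclic AMP response element, which reads the same on both strands. The matches shown do not overlap. Flt1 lies at chr5:147726062-147726261 on the minus strand, Iyd at chr10:3540024-3540223 on the plus strand and Scg2 at chr1:79440077-79440276 on the minus strand.
Flt1: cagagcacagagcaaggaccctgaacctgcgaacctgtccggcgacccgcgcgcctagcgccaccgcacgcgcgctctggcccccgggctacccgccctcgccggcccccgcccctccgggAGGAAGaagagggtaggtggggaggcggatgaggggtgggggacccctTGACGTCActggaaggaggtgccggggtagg
Iyd: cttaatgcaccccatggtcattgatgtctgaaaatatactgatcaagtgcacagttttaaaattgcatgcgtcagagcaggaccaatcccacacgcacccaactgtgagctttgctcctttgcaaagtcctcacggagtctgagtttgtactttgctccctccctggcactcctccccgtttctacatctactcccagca
Scg2: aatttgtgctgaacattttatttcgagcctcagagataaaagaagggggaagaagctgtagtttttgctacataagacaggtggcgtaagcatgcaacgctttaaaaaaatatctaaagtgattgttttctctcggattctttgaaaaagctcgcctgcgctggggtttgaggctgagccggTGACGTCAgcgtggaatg
TGACGTCA was in 2 of the 21 windows, those of Flt1 and Scg2, against 0.862% of all promoters. AGGAAG was in 7 of 21 against 23.6%, and TATAAA in 3 of 21 against 9.48%. The Iyd window holds no match to any of the 3 motifs. The windows were chosen after their matches were seen, and a match is a description of sequence only.

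Endothelial genes formed the largest group. This list and the others were chosen with earlier results of these data known. Of 36 genes in the list, 25 were tested, 13 were called lower and none higher, against 1.63% of all genes tested called lower. The median log2 fold change was -2.83, against 0.11 over all genes tested. The summed level of the list was 1305, 1380 and 1221 CPM in GFP+ cells against 5269, 8649 and 6375 CPM in GFP- cells, so the 2 ranges did not overlap. Kdr, the main signalling receptor for the vascular growth factor VEGF, was at 0, 35.2 and 11.6 CPM in GFP+ against 0, 1078 and 684 CPM in GFP- replicates 1, 2 and 3. Its level in GFP- replicates 2 and 3 was far above every GFP+ library, and GFP- replicate 1 was too shallow to place it. The log2 fold change of Kdr was -5.10 ± 0.96 (SE, n = 3 against 3; adjusted p = 5.48e-05). Flt1, the other high-affinity VEGF receptor of endothelium, was at 123, 88.1 and 23.3 CPM against 510, 852 and 845 CPM, a log2 fold change of -3.32 ± 0.84 (adjusted p = 0.00661), with no overlap between the fractions.

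Secreted and surface proteins of endothelium were among the called members. Esm1, a secreted proteoglycan of endothelial tip cells, was at 30.7, 0 and 0 CPM in GFP+ against 510, 483 and 300 CPM in GFP- cells. These were 2 reads against 106, a ratio of summed levels of 63.4 (exact 95% interval 17.1 to 530, counting error only; adjusted p = 2.36e-05). Plvap, the protein of the diaphragms that close fenestrae, was at 15.4, 17.6 and 0 CPM against 170, 460 and 323 CPM (log2 fold change -4.77 ± 0.91, adjusted p = 5.78e-05). Every GFP+ library lay below every GFP- library for Esm1 and for Plvap. Btnl9, a butyrophilin-like gene, had 0 reads in every GFP+ library and 0, 40 and 20 reads in GFP- replicates 1, 2 and 3, and was at least 23.9-fold lower, taking 3 reads over the group as the limit (adjusted p = 2.36e-05). Igfbp3, which binds insulin-like growth factors and was the 1 called member of the 9 tested in the IGF list, was at 30.7, 17.6 and 23.3 CPM against 680, 550 and 369 CPM (log2 fold change -4.33 ± 0.88, adjusted p = 0.000229).

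The sialomucin gene Emcn was at 30.7, 23.5 and 11.6 CPM against 680, 347 and 223 CPM (log2 fold change -3.82 ± 0.85, adjusted p = 0.00132). Esam, a junction adhesion molecule, was at 0, 23.5 and 0 CPM against 510, 143 and 154 CPM (-3.81 ± 0.91, adjusted p = 0.00372). Plpp1, a lipid phosphatase, was at 61.4, 23.5 and 0 CPM against 340, 339 and 223 CPM (-3.43 ± 0.82, adjusted p = 0.00372). None of Emcn, Esam and Plpp1 overlapped between the fractions. Cdh5, Podxl, Egfl7 and Adgrl4 were the remaining lower members. The other 12 members tested did not pass; 2 of them, Tek and Cav1, had positive log2 fold changes of 0.33 and 0.26 (adjusted p = 0.996 for each) and were named after their values were seen.

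Leaving out single libraries in turn did not turn the direction of any of the 36 genes. With the 1900 genes tested held fixed, a setting added after seeing the data, Btnl9, Plvap, Esm1, Kdr, Igfbp3, Emcn and Esam stayed called in all 6 fits. Flt1 was then called only without GFP- replicate 1 or GFP+ replicate 1 (adjusted p of up to 0.141), and Plpp1 was no longer called without GFP- replicate 2, GFP+ replicate 2 or GFP+ replicate 3 (up to 0.0868). Where the genes were also filtered again for the libraries that remained, more genes were tested, and of these 9 genes Btnl9 and Plvap alone stayed called in all 6 fits. In those fits Esm1 missed the threshold without GFP+ replicate 2 (adjusted p = 0.0546) and Kdr without GFP+ replicate 1 (0.0608). Igfbp3 missed it without GFP+ replicate 1 or 2 (up to 0.113), Emcn without GFP- replicate 2 or any GFP+ library (up to 0.147), and Esam without GFP- replicate 2, GFP- replicate 3, GFP+ replicate 1 or GFP+ replicate 3 (up to 0.151). Flt1 and Plpp1 missed it in all but the fit without GFP- replicate 1 (up to 0.331 and 0.222). DESeq2 called 10 of the 13 and gave Plpp1 an adjusted p of 0.135. These are bulk samples, in which fewer cells of a type and less RNA per cell cannot be told apart, here and in the groups that follow.

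Several genes of thyroid hormone synthesis were lower in GFP+ cells. Of 14 genes in the list, 6 were tested, 4 were called lower and none higher, against 1.63% of all genes tested called lower. The median log2 fold change was -3.57, against 0.11 over all genes tested. The summed level of the list was 814, 670 and 872 CPM in GFP+ against 850, 6500 and 10069 CPM in GFP- replicates 1, 2 and 3, and overlapped through GFP- replicate 1. Tg was at 491, 335 and 407 CPM in GFP+ against 680, 5362 and 9032 CPM in GFP- replicates 1, 2 and 3. GFP- replicates 2 and 3 were high, whereas GFP- replicate 1, with 4 reads of the gene, lay just above the GFP+ libraries. The log2 fold change of Tg was -3.79 ± 0.99 (SE, n = 3 against 3; adjusted p = 0.00842). Iyd, the deiodinase that recovers iodide from iodotyrosines, had 0, 7 and 1 reads against 0, 39 and 50 reads (log2 fold change -3.70 ± 0.78, adjusted p = 0.000523). Dio1, which converts thyroxine to the active hormone, had 1 read against 25 (0, 5.87 and 0 CPM against 0, 67.9 and 123 CPM), a ratio of summed levels of 29.9 (exact 95% interval 4.89 to 1230; adjusted p = 0.0125). Tg, Iyd and Dio1 were high in GFP- replicates 2 and 3 alone.

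The thyroid hormone calls differed in how they held with 1 library left out. With the same genes tested, Iyd stayed called in all 6 fits, whereas Tg and Dio1 stayed called only without GFP- replicate 1 or GFP- replicate 2 (adjusted p of up to 0.172 and 0.216). With the genes filtered again, Iyd missed the threshold without GFP- replicate 3 or GFP+ replicate 1 (up to 0.109), and Tg and Dio1 in all but the fit without GFP- replicate 1 (up to 0.33). With DESeq2 Tg was called, Iyd was not (adjusted p = 0.105), and Dio1 got no adjusted p. The thyroid transcription factor list had 2 of 6 genes tested and none called. Zbtb20, a zinc finger repressor that many stromal cells also express, was at 799, 1075 and 1326 CPM against 680, 566 and 561 CPM. Every GFP+ library was above every GFP- library, but the log2 fold change of 0.89 ± 0.71 did not pass (adjusted p = 0.85).

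Both C cell genes tested, of 15 in the list, were called lower in GFP+ cells, against 1.63% of all genes tested. They could pass the filter on low counts through GFP- libraries alone, so their direction does not test the list. Calca, which encodes calcitonin, was at 15.4, 194 and 209 CPM in GFP+ against 510, 2428 and 3064 CPM in GFP- cells. The fractions did not overlap, and the log2 fold change was -3.93 ± 0.90 (adjusted p = 0.00203). Scg2, a granin of secretory granules, was at 0, 23.5 and 11.6 CPM against 0, 392 and 399 CPM (-4.48 ± 0.82, adjusted p = 3.24e-05), and was high in GFP- replicates 2 and 3. The summed C cell list was at 123, 323 and 419 CPM against 510, 3031 and 3740 CPM. Scg2 stayed called with any 1 library left out, whether or not the genes were filtered again. With the same genes tested, Calca was lost only without GFP+ replicate 1 (adjusted p = 0.0911); with the genes filtered again it passed only without GFP- replicate 1 (up to 0.311).

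Parathyroid genes were not called. Pth was at 13853, 9969 and 8349 CPM in GFP+ against 5099, 34741 and 17742 CPM in GFP- cells, and the fractions overlapped through GFP- replicate 1 (log2 fold change -0.94 ± 0.89, adjusted p = 0.912). Chga, a granin of the parathyroid and of C cells, was at 4055, 3625 and 3733 CPM against 1530, 9245 and 6667 CPM (-0.73 ± 0.90, adjusted p = 0.957). None of the 5 parathyroid genes tested had an unadjusted p under 0.05, and DESeq2 called 0. All 5 had a negative fold change, with a median of -1.11, where 43.5% of all genes tested were negative.

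Of the lower genes outside the lists, Prlr was the steadiest. Prlr, the prolactin receptor, was at 0, 17.6 and 11.6 CPM in GFP+ against 1190, 136 and 253 CPM in GFP- cells, with no overlap and its highest level in the shallow GFP- replicate 1. Its log2 fold change was -4.47 ± 0.88 (adjusted p = 0.00012), and it stayed called with any 1 library left out. Arap3, a regulator of small GTPases, had 1 read against 19 (ratio 22.7, exact 95% interval 3.61 to 944; adjusted p = 0.0398) and, with the same genes tested, stayed called only without GFP- replicate 1 or GFP- replicate 3 (up to 0.474); with the genes filtered again it missed the threshold in all 6 fits (0.0519 to 0.541). Tcim was at 15.4, 11.7 and 11.6 CPM against 340, 181 and 92.2 CPM (-3.48 ± 0.90, adjusted p = 0.00802). It was lost without GFP- replicate 2 or GFP+ replicate 2 with the same genes tested (up to 0.154), and in all but the fit without GFP- replicate 1 with the genes filtered again (up to 0.318). The other 8 were Mmrn2, Plscr2, Cd300lg, Col13a1, Hilpda, Smco4, Slc9a3r2 and Nnat, listed after their values were seen; Mmrn2 is an extracellular matrix protein of endothelium. Bpifa1, a secreted protein of upper airway epithelium, had 0 reads in GFP+ cells and 36 in GFP- cells (0, 241 and 30.7 CPM), at least 14.4-fold lower (adjusted p = 0.000848); it was lost without GFP- replicate 2 with the same genes tested (adjusted p = 0.48), and without GFP- replicate 2 or GFP+ replicate 2 with the genes filtered again (up to 0.519).

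The 5 genes called higher were carried by GFP+ replicates 1 and 2. Krt6a, a keratin of stratified epithelium, was at 1812, 435 and 11.6 CPM in GFP+ against 0, 60.3 and 23.0 CPM in GFP- cells (log2 fold change 4.02 ± 0.91, adjusted p = 0.00388). Calml3, a calmodulin-like protein of stratified epithelia, was at 1444, 370 and 11.6 CPM against 0, 83 and 76.8 CPM (2.82 ± 0.72, adjusted p = 0.00701). Cbr2, a carbonyl reductase, was at 1183, 270 and 23.3 CPM against 0, 30.2 and 38.4 CPM (3.65 ± 0.79, adjusted p = 0.000848). In all 3 genes GFP+ replicate 3 lay below GFP- replicates 2 and 3. Adh7, an alcohol dehydrogenase named after its values were seen, was at 1029, 217 and 0 CPM against 0, 30.2 and 30.7 CPM (3.58 ± 0.89, adjusted p = 0.0061). Gsta4, a glutathione transferase and the 1 called member of the 18 tested in the antioxidant list, was at 676, 147 and 11.6 CPM against 0, 37.7 and 15.4 CPM (3.19 ± 0.92, adjusted p = 0.0299).

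The same libraries were high for the whole squamous and basal list. Its sum was 14406, 2655 and 105 CPM in GFP+ against 680, 400 and 253 CPM in GFP- cells, and all 10 members had reads. Of the 5 members tested, 1 was called and all had a positive fold change. Krt4 and Krt13, keratins of oesophageal and oral lining named after their values were seen, reached 3532 and 3471 CPM in GFP+ replicate 1, and were at 23.3 and 11.6 CPM in GFP+ replicate 3. The airway list followed with 3118, 652 and 105 CPM against 510, 611 and 184 CPM, of which Cyp2f2, a cytochrome of airway club cells also named afterwards, gave 2795, 540 and 23.3 CPM against 510, 166 and 15.4 CPM. Of the 10 airway genes, 7 had reads; the club cell genes Scgb1a1, Scgb3a1 and Scgb3a2 had 6, 7 and 3 reads over the 6 libraries, and Foxj1, Bpifb1 and Sftpd had 0. Without GFP+ replicate 1, none of the 5 genes was called, with adjusted p of 0.462 to 0.889 and log2 fold changes of 1.39 to 2.5 with the genes filtered again. None was called without it with the same genes tested either (0.375 to 0.772). Of the other libraries, with the same genes tested, Krt6a was lost without GFP- replicate 1 or 3, Calml3 and Adh7 without GFP- replicate 2 or 3, Cbr2 without GFP- replicate 2, and Gsta4 without any GFP- library. With the genes filtered again, Krt6a was lost without GFP- replicate 3, Calml3 without GFP- replicate 2, GFP- replicate 3 or GFP+ replicate 2, Cbr2 and Adh7 without GFP- replicate 2 or 3, and Gsta4 without any library but GFP+ replicate 3. DESeq2 called none of the 5; it gave Krt6a, Cbr2 and Calml3 adjusted p of 0.966, 0.198 and 0.289 and the other two none. The part of these epithelial transcripts in the other results was not tested.

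**Figure D4:**
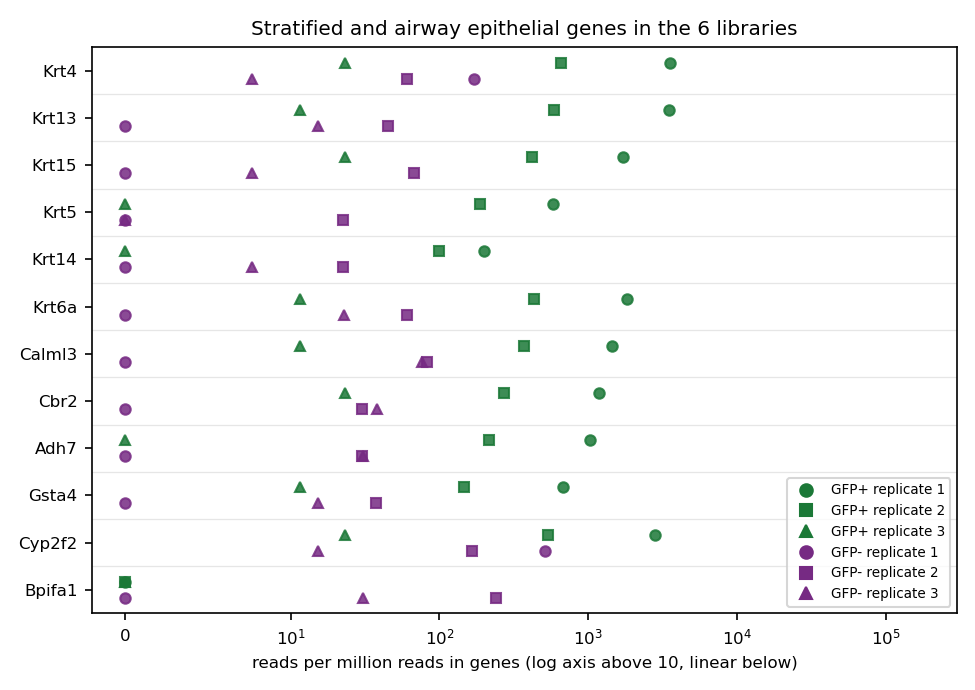
Level of 12 stratified and airway epithelial genes in each of the 6 libraries (CPM, log axis above 10 and linear below). For 11 genes GFP+ replicate 1 is the highest library, GFP+ replicate 2 follows and GFP+ replicate 3 lies at, among or below the GFP- libraries; Bpifa1 is at 0 in all GFP+ libraries.

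Fibroblast genes summed to a higher level in every GFP+ library, but no single gene passed. Of 40 genes in the list, 36 were tested and edgeR called none; 10 had an unadjusted p under 0.05 and DESeq2 called 1, Dpt, a matrix protein named after its values were seen. Of the 36, 35 had a positive fold change, against 56.4% of all genes tested, and the median log2 fold change was 1.18 against 0.11. Their sum was 24174, 35029 and 41477 CPM in GFP+ against 7648, 14871 and 18487 CPM in GFP- cells, without overlap. In 20 of the 36, every GFP+ library was above every GFP- library, against 14.8% of genes tested. Of the 281 such genes in the whole table, 238 had 0 reads in GFP- replicate 1. Against GFP- replicates 2 and 3 alone, 21 of 36 fibroblast genes lay above, against 18.6% of genes tested. Dcn, a small proteoglycan that binds collagen, was at 8985, 11009 and 11744 CPM against 2209, 4472 and 6098 CPM (log2 fold change 1.25 ± 0.90, adjusted p = 0.848). Gsn, an actin-severing protein abundant in fibroblasts, was at 1751, 2608 and 2919 CPM against 0, 1335 and 1567 CPM (1.05 ± 0.80, adjusted p = 0.85). Col1a1, a chain of type I collagen, was at 246, 435 and 756 CPM against 0, 90.5 and 177 CPM (1.84 ± 0.69, adjusted p = 0.198).

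Other stromal and blood genes were not called at this age. In the pericyte and smooth muscle list 9 of 17 genes were tested and none passed (2 at an unadjusted p under 0.05, 0 with DESeq2), with a median of -0.95. The fold change was positive in 4 of the 9 and negative in 5, and the summed list overlapped between the fractions. Abcc9, the second most abundant member, had a log2 fold change of 0.82 (adjusted p = 0.873). Rgs5, a pericyte signalling regulator, had 14, 24 and 13 reads in GFP+ and 1, 40 and 46 reads in GFP- cells (log2 fold change -0.95 ± 0.69, adjusted p = 0.848). Myh11, the smooth muscle myosin heavy chain, was at 15.4, 17.6 and 0 CPM against 170, 113 and 69.1 CPM (-2.91 ± 1.01, adjusted p = 0.121), with no overlap. Of 4 red cell genes tested, all 4 had an unadjusted p under 0.05, against 169 of all 1900 genes tested. Neither edgeR nor DESeq2 called any of the 4 (0). The beta globin Hbb-bs was at 338, 752 and 605 CPM against 850, 3182 and 2197 CPM (-1.96 ± 0.85, adjusted p = 0.375). Hbb-bt, its near-identical copy with which reads may be shared, was at 138, 429 and 477 CPM against 510, 1335 and 1206 CPM (-1.64 ± 0.78, adjusted p = 0.473). The ranges did not overlap for either globin. Of all genes tested, 3.63% had every GFP+ library below every GFP- library. Skeletal muscle genes were too sparse to test and summed to 15.4, 5.87 and 0 CPM against 340, 392 and 246 CPM.

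Lists of cell state gave no call beyond Igfbp3 and Gsta4. In the inflammation list 17 of 30 genes were tested and none passed (4 at an unadjusted p under 0.05, 0 with DESeq2), with a median of 1.05 and 11 genes above GFP- in every GFP+ library, against 14.8% of genes tested. Against GFP- replicates 2 and 3 alone, 11 of the 17 lay above, against 18.6%. Tnfaip6, a secreted hyaluronan-binding protein induced by tumour necrosis factor, was at 1290, 1709 and 2023 CPM in GFP+ against 170, 754 and 876 CPM in GFP- cells (log2 fold change 1.23 ± 0.76, adjusted p = 0.721). The quiescence list had 6 of 20 genes tested, none called, and a median of 0.24. The cell cycle inhibitor Cdkn1a was at 338, 282 and 326 CPM against 0, 400 and 330 CPM, which overlapped. Cdkn1b, another inhibitor of the same family, was too sparse to test, with 24 reads in GFP+ and 16 in GFP- cells. Of the proliferation list 3 of 22 genes were tested and none was called. Mki67, the standard mark of cycling cells, had 0 reads in all 6 libraries, which allows up to 46.1, 17.6 and 34.9 CPM in GFP+ against 510, 22.6 and 23.0 CPM in GFP- replicates 1, 2 and 3. At this depth a difference in cycling was not detectable. Core histone genes had 5 tested, none called and a median of 0.24.

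Genes of protein synthesis and respiration also gave no call; in these lists, and in those of quiescence, proliferation, core histones and immediate early genes, edgeR gave 0 genes at an unadjusted p under 0.05 and DESeq2 called 0. Of the cytosolic ribosomal protein genes 74 of 82 were tested and none passed. The fold change was positive in 68, against 56.4% of all genes tested, and the median was 0.46 against 0.11. Nuclear genes of oxidative phosphorylation had 36 tested and a median of -0.18, and the mitochondrially encoded ones had 7 tested and a median of -0.26. Immediate early genes, which cell dissociation induces, had 25 tested, none called and a median of 0.03. Their sum was 14283, 16930 and 16733 CPM in GFP+ against 8668, 17729 and 15914 CPM in GFP- cells.

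The same sort at 3 and 6 months used other libraries, 4 of each fraction at each age. Some of these were very shallow. The 3-month GFP+ libraries had 1562, 5896, 18639 and 174957 reads in genes, in order of replicate. Levels summed over that group, with 201054 reads, therefore rest mostly on replicate 4. At 6 months, GFP+ replicate 4 had 507 reads and GFP- replicate 2 had 4845. At 3 months 185 of 1900 genes were called (9.74%; 5% higher, 4.74% lower) and at 6 months 135 (7.11%; 5.26% higher, 1.84% lower). Of the 31 genes lower at 9 months, 30 had a negative fold change at 3 months and 24 were called lower there, which is 77.4% of the 31 and 26.7% of the 90 genes lower at 3 months. At 6 months 30 were negative and 16 were called lower, which is 51.6% of the 31 and 45.7% of the 35 genes lower at 6 months. The 16 were called lower at all 3 ages. Esm1 had log2 fold changes of -9.36, -5.17 and -5.61 at 3, 6 and 9 months, Kdr of -5.05, -4.41 and -5.10, Igfbp3 of -4.71, -4.56 and -4.33, Scg2 of -7.20, -4.37 and -4.48, and Calca of -5.34, -4.68 and -3.93. Each of these passed at all 3 ages.

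Bpifa1, Dio1, Iyd, Prlr, Smco4 and Tg were among the genes lower at 9 months and called at neither earlier age. The thyroid hormone list, summed over the libraries of a group, was at 4660 CPM in GFP+ against 6334 CPM in GFP- cells at 3 months, 3044 and 3770 CPM at 6 months, and 753 and 8106 CPM at 9 months. Tg had log2 fold changes of -1.91 (adjusted p = 0.111), -0.95 (adjusted p = 0.631) and -3.79 at 3, 6 and 9 months, and Prlr of -1.10, -0.35 and -4.47. The difference between ages did not itself pass for these genes. For Tg it was -1.88 ± 1.19 against 3 months (adjusted p = 0.976) and -2.84 ± 1.20 against 6 months (adjusted p = 0.791), and for Prlr -3.37 ± 1.17 (adjusted p = 0.374) and -4.12 ± 1.14 (adjusted p = 0.111). Bpifa1 against 3 months was the exception. Of the 36 fibroblast genes tested, 23 were called higher at 3 months, 22 at 6 months and 0 at 9 months. Of all genes tested, 5%, 5.26% and 0.263% were called higher at these ages, so few calls of any kind were higher at 9 months. The median log2 fold change of the 36 was 2.41, 2.42 and 1.18, and Col1a1 had log2 fold changes of 3.09, 2.46 and 1.84. The median difference of the fibroblast genes from 3 months was -1.17 (0.29 over all genes) and 1 gene, Abca8b, passed; against 6 months none did.

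**Figure D5:**
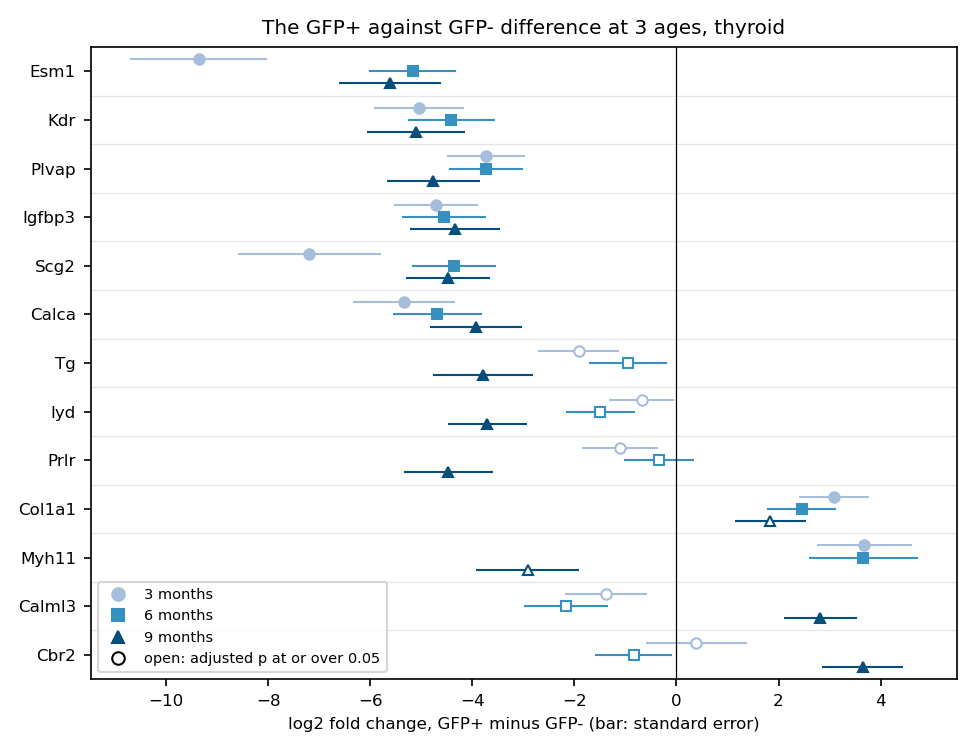
Log2 fold change of GFP+ against GFP- thyroid cells at 3, 6 and 9 months for 13 genes, with bars for the standard error and open symbols where the adjusted p was not under 0.05. Endothelial and C cell genes lie on the same side at all 3 ages, whereas Myh11 goes from 3.69 and 3.66 to -2.91 and Calml3 from -1.38 and -2.16 to 2.82.

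Tests of the difference between ages, over all genes, called 6 of 1900 against 3 months (0.316%) and 3 against 6 months (0.158%). Against 3 months 1 was higher (0.0526%) and 5 lower (0.263%), and against 6 months 2 were higher (0.105%) and 1 lower (0.0526%). Both comparisons share the 9-month libraries. In simulated counts the test against 3 months recovered 0% of 4-fold changes and that against 6 months 2%. A gene that did not pass may therefore still differ between ages. Myh11 passed in both, and so did Calml3.

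The same sort of salivary gland at 9 months gave no gene called as differing from thyroid. None of 974 genes passed (0%), DESeq2 called 0 as well, and 86 genes had an unadjusted p under 0.05. In simulated counts this test recovered 0% of 2-fold and 3% of 4-fold changes, so genes that differ could be missed. The salivary GFP+ libraries had 993, 11795 and 79225 reads in genes. Of the 31 genes lower in thyroid GFP+ cells, 12 were tested with the salivary libraries, 8 were negative and 3 positive there, and none was called. Esm1 had a log2 fold change of -4.24 there (adjusted p = 0.688) and Emcn of 1.35 (adjusted p = 0.688).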

How the data were processed

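Poly(A) RNA of freshly sorted cells was extracted with a column kit and DNase I and made into libraries with a 3′ kit, per the labels' protocols. The authors deposited raw read counts per Ensembl gene, 1 table per library. Per the submitters' processing notes, bcl2fastq was used and the build was mm9. The gene rows include Ensembl identifiers newer than mm9 annotations, so the build stays uncertain. The aligner and counter are not given in the sources used here. The 5 summary rows of each table were left out of totals and tests (21.8 to 65.9% of reads in these 6 libraries had no feature, at most 0.407% were ambiguous). Of 47643 gene rows 47224 matched a GENCODE vM21 symbol.

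Tests were edgeR 4.0.16 quasi-likelihood (R 4.3.3, TMM, filterByExpr, robust) over 22 thyroid libraries in 6 groups, or 12 libraries at 9 months for salivary gland. Benjamini-Hochberg adjustment was over all genes tested, at 0.05. In simulated counts the comparison of fractions at 9 months recovered 2% of 2-fold and 26% of 4-fold changes. A gene that was not called may therefore still differ. No source says that replicates came from separate animals; the p-values rest on the spread among the deposited samples alone, which may be technical. Intervals and the 3-read limit cover counting error only. Each SE was derived from the test, as the absolute log2 fold change over the square root of the quasi-likelihood F statistic. It therefore uses the spread shared over all libraries of the fit. Among the 6 libraries at 9 months, replicates of a fraction differed by more than sampling noise (chi-square per degree of freedom 2.43 to 4.92). At 6 months, GFP+ replicates 1 and 4, the latter with 507 reads, gave 1.13.

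Named genes were the 12 lowest and highest called genes of mean log2 CPM at least 4 without overlap, up to 4 called (or the 2 most abundant) members of each list, up to 4 per direction of each age difference, and a fixed set of 12 genes. The members and lists were chosen with earlier results of these data known. Alternatives were DESeq2 1.42.0, other scaling, filters and sample sets, a replicate block and leaving out libraries. The values of 1 called gene are not reported here.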

Additional observations from a re-analysis of the deposited data

Results flagged for a closer look

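The GFP+ against GFP- difference at 9 months differed from that at another age for 7 genes, by the interaction test of edgeR. A fitted value against a group with 0 reads depends on the prior count and is no measure of size. Summed levels of GFP+ cells at 3 months rest mostly on replicate 4, the deepest library of that group. The direction of each held in every alternative that gave a value.

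Myh11, the smooth muscle myosin, had a difference of -6.60 ± 1.38 (SE, log2) from 3 months (adjusted p = 0.00159) and of -6.58 ± 1.47 from 6 months (adjusted p = 0.00694). Its summed level was 239 CPM in GFP+ against 11 CPM in GFP- cells at 3 months, 101 and 5.57 CPM at 6 months, and 4 against 25 reads at 9 months. Without GFP- replicate 2 neither passed (adjusted p = 0.132 and 0.131).

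Acta2, smooth muscle actin, differed by -4.80 ± 1.13 from 3 months (adjusted p = 0.0132), with 123, 206 and 93.0 CPM in GFP+ against 340, 181 and 30.7 CPM in GFP- cells at 9 months. Abca8b, a lipid transporter of fibroblasts, differed by -6.11 ± 1.49 (adjusted p = 0.0184), and Fhl1, a muscle LIM protein named after its values were seen, by -6.39 ± 1.63 (adjusted p = 0.0274). Both had 0 reads in GFP- cells at 3 months. Leaving out 1 of the 6 libraries ended the call of Acta2 in 4 of 6 fits, of Abca8b in 5 and of Fhl1 in all 6.

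Bpifa1 differed by -8.36 ± 1.61 from 3 months (adjusted p = 0.000397), with a summed level of 254 CPM in GFP+ against 35.8 CPM in GFP- cells at 3 months and 0 against 36 reads at 9 months. It did not pass without GFP- replicate 2 (adjusted p = 0.618).

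Calml3 differed by 4.20 ± 1.07 from 3 months (adjusted p = 0.0274) and by 4.98 ± 1.09 from 6 months (adjusted p = 0.00694), and Cbr2 by 4.49 ± 1.10 from 6 months (adjusted p = 0.0278). With the genes filtered again for each set, leaving out 1 of the 6 libraries ended the call of Calml3 against 3 months in 5 of 6 fits (adjusted p 0.0836 to 1) and against 6 months in 3 (0.131 to 0.751), and that of Cbr2 in 5 (0.0638 to 1). None of these 3 differences passed without GFP+ replicate 1, the library with 14406 CPM of squamous genes.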

How the results depend on the processing

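The 36 called genes kept their direction in all 745 values that the alternatives gave, but the number called did not hold. For 9 months it was 20 (3 higher, 17 lower) in a fit of the 12 libraries at 9 months, 19 (0 and 19) with the 6 thyroid libraries alone, 15 (1 and 14) with DESeq2, 3 (2 and 1) without a filter on low counts, 8 (2 and 6) with at least 20 counts in 0.5 of the libraries, and 15 (0 and 15) without both replicate 1 libraries, a setting added after seeing the data. DESeq2 size factors gave 8 higher and 29 lower and moved the median of all genes from 0.11 to 0.33, all 28 libraries in 1 fit gave 8 and 25, and leaving out libraries under 10000 reads gave 5 and 47. Leaving out 1 library, with the genes filtered again, gave 6 to 43 called genes (0 to 16 higher, 6 to 32 lower). With the 1900 genes held fixed, also added later, this was 15 to 45 (0 to 12 higher, 14 to 40 lower; 18 without GFP+ replicate 1, 22 without GFP+ replicate 2), and Btnl9, Emcn, Esam, Esm1, Igfbp3, Iyd, Kdr, Plvap, Prlr and Scg2 stayed called in all 6 fits.

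With a replicate block, 5 genes were called, 0 higher and 5 lower, all 5 among the 36; it gave 2 against 3 months, 0 against 6 months and 0 against salivary gland. The deviations of same-numbered GFP+ and GFP- libraries correlated at 0.095, 0.04 and 0.133, and those of differently numbered ones at -0.163 to 0.064. GFP+ replicate 2 correlated best with GFP- replicate 3 (0.064). With 3 libraries a group, these values cannot decide whether same-numbered libraries were paired. The differences from 3 months numbered 0 with DESeq2, 12 with its size factors, 1 without a filter, 0 with the stricter filter and 13 without libraries under 10000 reads, and 0 to 4 with 1 library left out. Those from 6 months numbered 0, 2, 0, 1, 13 and 0 to 4. Against salivary gland 1 gene passed without libraries under 10000 reads and 0 to 1 with 1 library left out. The causes were not tested. Depth limits most values: 1 read was worth 5.87 to 15.4 CPM in 5 libraries and 170 CPM in GFP- replicate 1.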
